A study of Rattus norvegicus with 12 samples.

Results

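The genes described here encode the enzymes that make and remove inositol pyrophosphates. The list was given by name as Nudt3, Nudt4, Nudt10, Nudt11, Ip6k1, Ip6k2, Ppip5k1, Ppip5k2, Ipmk and Ippk, and 9 of these 10 genes were found among the 22850 features of the tables, all of them with reads in every library. Nudt10 was not analysed here. The cells were primary fibroblasts from the atria of newborn Sprague-Dawley rats, enriched by their adhesion to the dish and not sorted, and all groups received angiotensin II (AngII) at 1 μmol/L for 48 h. The AngII group received nothing else. The AngII+HNG group also received HNG, a glycine-for-serine analogue of the mitochondrial-derived peptide humanin, at 10 μmol/L, and the AngII+MOTS-c group the mitochondrial-derived peptide MOTS-c at 5 μmol/L, each added 1 h before AngII. Each group had 4 libraries, 12 in all. Fibroblasts without AngII were not analysed here. The study calls the 4 libraries of a group biological replicates. Whether they came from separate animals or only from separate dishes is stated neither there nor in the labels. The p-values below therefore measure the spread between these libraries.

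Inositol pyrophosphates are small, energy-rich signalling molecules built on inositol hexakisphosphate, the fully phosphorylated inositol ring. Ipmk and Ippk add the last phosphates of the ring, the Ip6k kinases attach a further phosphate to one that is already there, and the Ppip5k enzymes, which carry both a kinase and a phosphatase domain, attach a further one at a second site. Nudt3, Nudt4, Nudt10 and Nudt11 are Nudix hydrolases known as diphosphoinositol polyphosphate phosphohydrolases, which remove these extra phosphates again. The pathway is known for its part in phosphate export, insulin signalling and the energy state of the cell.

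Among the members, Nudt11 had the log2 fold changes farthest from 0 between the treatments in the main test, edgeR. None of them passed the adjusted threshold of 0.05, and Nudt11 was also the member with the lowest level. The windows of 250 bases before the start of the 3 phosphohydrolase genes are shown because Nudt11 stood far below Nudt3 and Nudt4 in level. They were taken from RefSeq (build GRCr8), where windows were found for 8 of the 10 genes and not for Nudt10 and Ip6k2. The build of the deposited tables is not given in the sources used here, so these positions are those of RefSeq only. Capitals mark matches on either strand to the GC box GGGCGG or to TGACG, the core of the cAMP response element.
Nudt11, chrX:18998337-18998586, plus strand: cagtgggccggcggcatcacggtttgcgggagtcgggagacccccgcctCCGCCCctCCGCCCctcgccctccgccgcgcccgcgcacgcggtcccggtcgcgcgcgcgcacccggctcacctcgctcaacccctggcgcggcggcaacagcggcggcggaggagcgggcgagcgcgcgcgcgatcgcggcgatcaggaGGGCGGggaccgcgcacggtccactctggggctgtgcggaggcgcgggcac
Nudt4, chr7:32091492-32091741, minus strand: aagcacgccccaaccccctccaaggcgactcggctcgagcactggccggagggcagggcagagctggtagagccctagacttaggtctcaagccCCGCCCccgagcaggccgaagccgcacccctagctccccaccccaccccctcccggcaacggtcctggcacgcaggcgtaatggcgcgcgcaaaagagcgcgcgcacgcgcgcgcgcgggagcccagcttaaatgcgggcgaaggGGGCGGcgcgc
Nudt3, chr20:5688755-5689004, minus strand: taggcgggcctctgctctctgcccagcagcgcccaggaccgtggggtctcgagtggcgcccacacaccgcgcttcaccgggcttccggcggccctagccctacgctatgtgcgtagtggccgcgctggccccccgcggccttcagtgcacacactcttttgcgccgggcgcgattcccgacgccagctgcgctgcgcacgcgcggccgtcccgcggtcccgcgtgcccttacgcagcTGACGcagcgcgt

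The Nudt11 window held 80.4% G and C and 47 CpG dinucleotides, more CpG than 99.8% of the 33469 RefSeq windows of this length, whose medians were 51.2% and 5. The Nudt4 window held 72.4% and 30 CpG, and the Nudt3 window 73.2% and 36 CpG, more CpG than 94.7% and 97.8% of these windows. The GC box occurred 3 times in the Nudt11 window, 2 times in that of Nudt4 and 0 times in that of Nudt3, and 30.5% of all windows held at least 1. TGACG occurred 1 time in the Nudt3 window and was found in 18.2% of all windows. The letters TATAAA of the TATA box (12.9% of all windows) and CCAAT (34% of all windows) were in none of the 3 windows, and no match overlapped another. These matches describe the letters only.

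Levels of different genes were compared in FPKM, which divides the read count by gene length and library total. Nudt4 had the highest level at 42.6 ± 1.81 FPKM (SD, n = 12 libraries), followed by Nudt3 at 30.1 ± 1.13, Ip6k1 at 23.7 ± 1.11 and Ip6k2 at 15.4 ± 0.718. The ranges of these 4 genes over the libraries did not overlap. Ppip5k1 at 5.83 ± 0.344 and Ppip5k2 at 5.76 ± 0.222 FPKM stood side by side with overlapping ranges, as did Ipmk at 3.49 ± 0.215 and Ippk at 3.42 ± 0.379. Nudt11 came last at 0.448 ± 0.126 FPKM, 7.62 times below Ippk, and the highest Nudt11 library lay below the lowest Ippk library. Seen across all features with reads, Nudt4 stood at the percentile 91 of mean FPKM and Nudt11 at the percentile 29.9. The order was the same by the median FPKM.

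**Figure D1:**
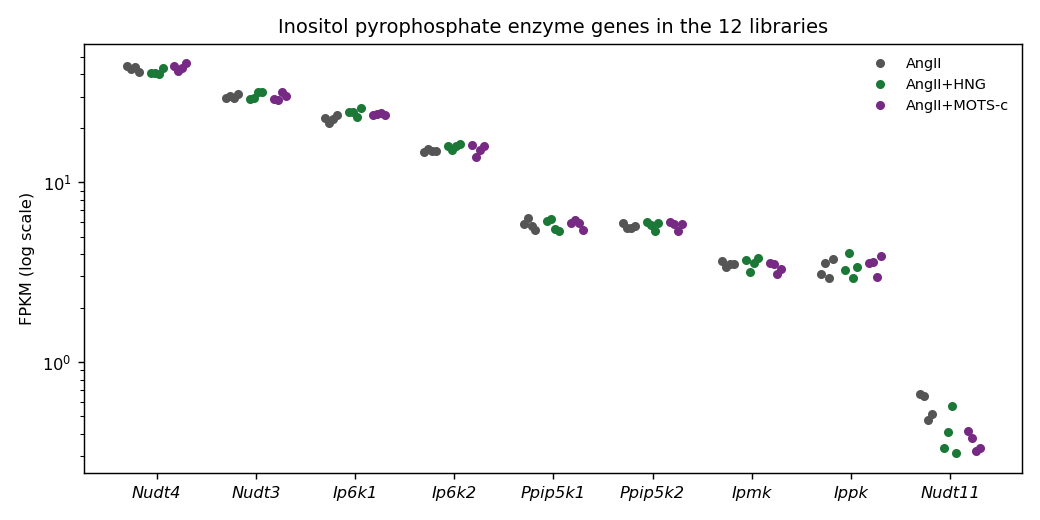
FPKM on a log scale of the 9 genes in the 12 libraries, 1 point per library, coloured by treatment and ordered by mean level. The points of Nudt4, Nudt3, Ip6k1 and Ip6k2 lie close together within each gene, whereas Nudt11 lies between 0.311 and 0.665 FPKM, below every other member.

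In the AngII group, Nudt11 stood at 0.665, 0.647, 0.475 and 0.513 FPKM in replicates 1 to 4, with a mean of 0.575 ± 0.0952 (SD, n = 4). With MOTS-c it stood at 0.417, 0.379, 0.322 and 0.332 FPKM, with a mean of 0.363 ± 0.0441 (SD, n = 4). All 4 AngII+MOTS-c libraries lay below all 4 AngII libraries. With HNG the values were 0.334, 0.410, 0.574 and 0.311 FPKM, with a mean of 0.407 ± 0.119 (SD, n = 4). AngII+HNG replicate 3 reached into the AngII range, while the other 3 libraries lay below it. In bulk libraries such as these, fewer cells of a type and less RNA per cell cannot be told apart. In other mammals Nudt10 and Nudt11 are close copies of each other, and reads from such copies could be split or joined by the counting, so the Nudt11 value is uncertain to that extent.

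These levels rested on few reads. The Nudt11 counts were 42 to 67 in the AngII libraries, 25 to 50 in the AngII+HNG libraries and 25 to 38 in the AngII+MOTS-c libraries. The count of 67 in AngII replicate 1 had an exact 95% Poisson interval of 51.9 to 85.1, and the count of 25 in AngII+MOTS-c replicate 3 one of 16.2 to 36.9, intervals that cover counting error only. Counting alone gives a coefficient of variation of 13.5%, 16.6% and 17.5% at the mean counts of the AngII, AngII+HNG and AngII+MOTS-c groups. The coefficients measured on CPM, the counts scaled to a common library size, were 15.5%, 29.1% and 11.1%. Each comes from 4 libraries, and its difference from the counting value was not tested. For the other 8 members, with 240 to 5432 counts in a library, the coefficients in single groups ran from 1.14% for Ip6k1 to 12.9% for Ippk, both in the AngII+MOTS-c group.

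**Figure D2:**
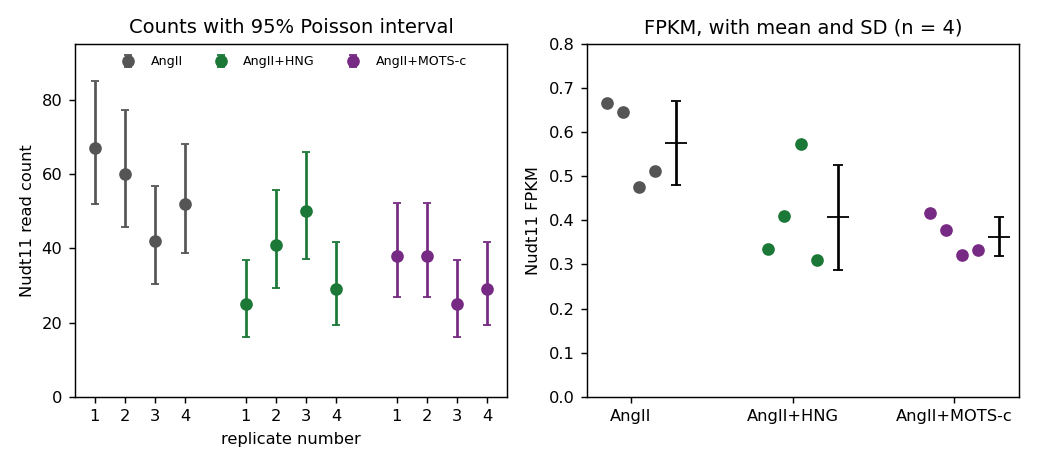
Nudt11 in each library, as read counts with exact 95% Poisson intervals (left) and as FPKM with the mean and SD of 4 libraries (right, axis from 0). The AngII+MOTS-c points, 0.322 to 0.417 FPKM, lie below the AngII points, 0.475 to 0.665 FPKM, and 1 AngII+HNG point at 0.574 FPKM lies within the AngII range.

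The comparison of AngII+MOTS-c with AngII asked which genes this peptide changes in AngII-treated fibroblasts. Nudt11 was 36.6% lower with MOTS-c, a log2 fold change of -0.66 (standard error 0.19, 95% interval -1.07 to -0.25). Its unadjusted p-value in edgeR's quasi-likelihood test was 0.00413, the rank 58 among 14488 tested genes, and its adjusted p-value was 0.924, above the threshold of 0.05. Of the 9 members, 0 passed the adjusted threshold, as did 0.0069% of all tested genes, and 0 passed with DESeq2 or with limma on FPKM. An unadjusted p below 0.05 was found for 1 of 9 members in each of these 3 tests, against 5.05% of all tested genes in edgeR. The groups did not overlap in 1 of 9 members, against 3.41% of all tested genes. The study picked Nudt11 for qPCR from this same comparison, so its direction in these libraries is not independent evidence. The 7 smooth muscle and pericyte markers had a summed level of 2540 to 2760 CPM with MOTS-c against 2780 to 2940 CPM with AngII. Most of this sum was Tagln, at a mean of 1990 and 2160 CPM, and Rgs5 alone had a higher mean with MOTS-c, at 5.15 and 5.01 CPM. Their part in the Nudt11 value was not tested.

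The other 8 members differed little between AngII+MOTS-c and AngII. Their log2 fold changes were -0.070 to 0.069, and their 95% intervals together spanned -0.20 to 0.28, the lower end from Ipmk and the upper end from Ippk. The median over all 9 members was 0.019, beside -0.00076 over all tested genes, with 6 members above and 3 below 0. Ip6k1, the hexakisphosphate kinase with the higher level, stood at 22.7, 21.5, 22.6 and 23.7 FPKM with AngII and at 23.6, 23.8, 24.3 and 23.7 with MOTS-c. The lowest AngII+MOTS-c library was below the highest AngII library, and the log2 fold change was 0.067 (95% interval -0.0070 to 0.14, edgeR, adjusted p = 0.924). Nudt3 and Nudt4, the abundant phosphohydrolases, had log2 fold changes of 0.00026 (95% interval -0.084 to 0.085) and 0.019 (95% interval -0.058 to 0.095).

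The comparison of AngII+HNG with AngII asked the same question for HNG, with the same 4 AngII libraries. Nudt11 was 29.9% lower, a log2 fold change of -0.51 (standard error 0.22, 95% interval -0.99 to -0.032, edgeR, adjusted p = 0.217). Without AngII+HNG replicate 3, the library within the AngII range, the log2 fold change was -0.72 (edgeR, adjusted p = 0.074, against 0.074 to 0.429 over all alternatives). The smooth muscle and pericyte markers summed to 2200 to 2490 CPM with HNG against 2780 to 2940 CPM with AngII, ranges that did not overlap. The mean of Tagln was 1720 and 2160 CPM with HNG and AngII, that of Myh11 143 and 182 and that of Cnn1 110 and 147, while Des stood at 271 and 267, Cspg4 at 81.5 and 82.0, Rgs5 at 4.83 and 5.01 and Kcnj8 at 2.13 and 2.43. Their part in the Nudt11 value was not tested. Of the 9 members, 0 passed the adjusted threshold, against 5.98% of all tested genes, and 0 passed with DESeq2 or limma. An unadjusted p below 0.05 was found for 1 of 9 members in edgeR, 1 in DESeq2 and 2 in limma, against 20.3% of all tested genes in edgeR. The groups overlapped in all 9 members and did not overlap in 13.7% of all tested genes.

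Among the other members, Ip6k1 and Ippk had the highest log2 fold changes with HNG and Nudt4 the lowest, and none passed the test. Nudt4 stood at 44.1, 42.9, 43.7 and 41.0 FPKM with AngII and at 40.7, 40.8, 39.8 and 43.4 with HNG. AngII+HNG replicate 4 lay within the AngII range and the other 3 libraries lay below it, and the log2 fold change was -0.081 (95% interval -0.17 to 0.0036, edgeR, adjusted p = 0.271). Ip6k1 stood at 24.5, 24.7, 23.1 and 25.7 FPKM with HNG against 21.5 to 23.7 with AngII. Here AngII+HNG replicate 3 lay within the AngII range, and the log2 fold change was 0.095 (95% interval -0.0012 to 0.19, edgeR, adjusted p = 0.254). Ip6k2 had a log2 fold change of 0.055 (95% interval -0.047 to 0.16) and Ippk one of 0.094 (95% interval -0.13 to 0.31). Those of Nudt3, Ppip5k1, Ppip5k2 and Ipmk lay between -0.030 and 0.015. The median over all 9 members was 0.00048, beside 0.0043 over all tested genes, with 5 members above and 4 below 0.

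**Figure D3:**
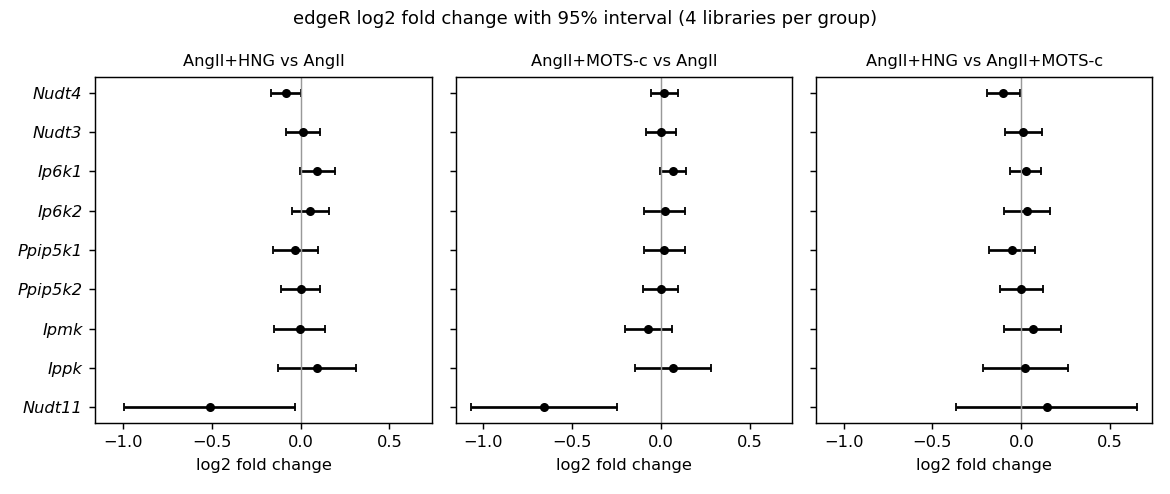
Log2 fold changes of the 9 genes in the 3 comparisons, as points with 95% intervals from edgeR (4 libraries per group), with the line at 0 marking no difference. The Nudt11 intervals reach from -0.99 to -0.032 with HNG and from -1.07 to -0.25 with MOTS-c, while the other members lie near 0 with intervals within -0.22 and 0.31.

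The peptides were compared directly between AngII+HNG and AngII+MOTS-c. Nudt11 differed by a log2 fold change of 0.14 (95% interval -0.37 to 0.65, edgeR, adjusted p = 0.794), an interval that allows a difference in either direction, and without AngII+HNG replicate 3 the value was -0.067. Nudt4 was lower with HNG than with MOTS-c, with 39.8 to 43.4 against 41.8 to 45.8 FPKM, in groups that overlapped. Its log2 fold change was -0.10 (95% interval -0.20 to -0.0090, edgeR, adjusted p = 0.216). Of the 9 members, 0 passed the adjusted threshold, against 4.41% of all tested genes, and 0 passed with DESeq2 or limma. An unadjusted p below 0.05 was found for 1 of 9 members in edgeR (Nudt4), 1 in DESeq2 and 0 in limma, against 19.3% of all tested genes in edgeR. The groups overlapped in all 9 members, whereas they did not overlap in 12.6% of all tested genes.

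The phosphohydrolase mRNAs measured here were almost wholly Nudt3 and Nudt4. Nudt11 made up 0.782% ± 0.125 of the summed FPKM of Nudt3, Nudt4 and Nudt11 with AngII, 0.566% ± 0.167 with HNG and 0.490% ± 0.0696 with MOTS-c (SD, n = 4 each). The sum itself was 73.5 ± 0.786 FPKM with AngII, 72.1 ± 2.42 with HNG and 74.1 ± 2.33 with MOTS-c, and the 3 ranges overlapped. The summed FPKM of Ip6k1 and Ip6k2 was 36.7 to 38.7 with AngII, 39.0 to 42.2 with HNG and 37.7 to 39.9 with MOTS-c. The ratio of the first sum to the second was 1.87 to 2.01 with AngII, 1.74 to 1.85 with HNG and 1.85 to 1.92 with MOTS-c. In FPKM all 4 AngII+HNG libraries lay above the AngII libraries in the kinase sum, but each kinase on its own overlapped. The share of single tested genes without overlap between these groups, 13.7%, was taken in CPM and not in FPKM. On the CPM scale, tried after seeing the data, the kinase sum was 129.3 to 140.2 with AngII and 135.5 to 148.6 with HNG, and the ratio 1.43 to 1.58 and 1.35 to 1.44, so 3 of 4 libraries lay apart in each and the groups overlapped. These sums were formed with the values known and were not tested. The sum of Ppip5k1 and Ppip5k2 was 11.5 ± 0.371, 11.6 ± 0.589 and 11.7 ± 0.431 FPKM in the AngII, AngII+HNG and AngII+MOTS-c groups, and that of Ipmk and Ippk 6.86 ± 0.327, 6.97 ± 0.331 and 6.88 ± 0.533 FPKM (SD, n = 4 each).

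**Figure D4:**
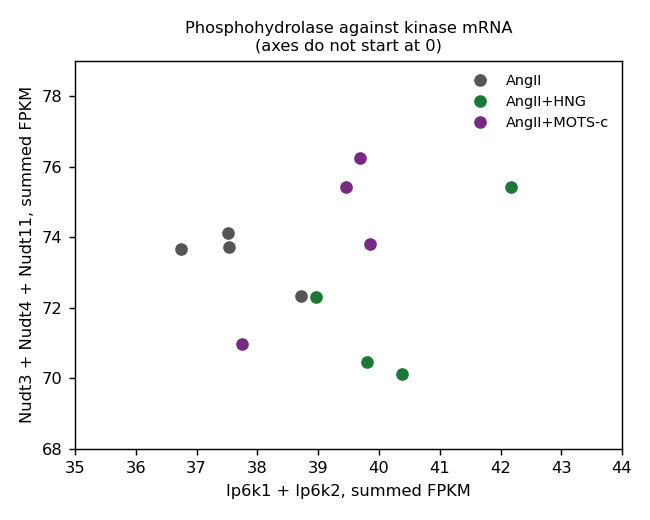
Summed FPKM of Nudt3, Nudt4 and Nudt11 against that of Ip6k1 and Ip6k2, 1 point per library, with axes that do not start at 0. The AngII+HNG points lie to the right, at 39.0 to 42.2 FPKM of kinase mRNA, and the AngII points to the left, at 36.7 to 38.7, whereas in CPM these groups overlapped in the kinase sum.

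Genes around these enzymes were read from lists of the inositol phosphate pathway. Of 15 further inositol phosphate kinases and phosphatases, 14 were tested, and 0 passed the adjusted threshold of edgeR in either comparison with AngII, with 2 below an unadjusted p of 0.05 in each. Over all tested genes 20.3% were below this p with HNG and 5.05% with MOTS-c, and 5.98% and 0.0069% passed the adjusted threshold. The median log2 fold change of the list was -0.035 with HNG and -0.0061 with MOTS-c, beside 0.0043 and -0.00076 over all tested genes. DESeq2 called 1 of them with HNG and 0 with MOTS-c, and limma 0 in both. Over all genes DESeq2 called 1192 with HNG and 4 with MOTS-c. The gene of this list that DESeq2 called was Inpp4b, a lipid phosphatase named here after its values were seen. Inpp4b stood at 21.5 ± 3.24 CPM with HNG and 26.7 ± 1.24 with AngII (SD, n = 4 each). Its log2 fold change in edgeR was -0.31 (95% interval -0.51 to -0.12, adjusted p = 0.0639). Ip6k3, the third hexakisphosphate kinase, named here outside the rule for the other genes, stood at 0.136 FPKM with AngII, 0.126 with HNG and 0.144 with MOTS-c. Bpnt2, a Golgi phosphatase and the member of this list with most reads, stood at 142.9 ± 2.20 CPM with AngII and 135.4 ± 10.4 with HNG (SD, n = 4 each). Of 12 phospholipase C genes, whose enzymes release the inositol trisphosphate from which the route starts, 11 were tested. With HNG, 1 of them passed the adjusted threshold and 5 had an unadjusted p below 0.05, and with MOTS-c these numbers were 0 and 1. Over all tested genes 5.98% and 20.3% did so with HNG and 0.0069% and 5.05% with MOTS-c. The median log2 fold change of the list was 0.050 with HNG and -0.019 with MOTS-c. DESeq2 and limma each called 1 with HNG and 0 with MOTS-c.

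The phospholipase C gene that passed was Plcb2, an isoform best known from blood cells. It rose from 4.98 ± 0.333 to 6.73 ± 0.721 CPM with HNG (SD, n = 4 each), a log2 fold change of 0.44 (95% interval 0.21 to 0.67, edgeR, adjusted p = 0.0279). All 4 AngII+HNG libraries, at 6.06 to 7.75 CPM, lay above the AngII libraries, at 4.53 to 5.34 CPM. Its adjusted p was above 0.05 when any 1 of the 4 AngII libraries or AngII+HNG replicate 4 was left out, at 0.0542 to 0.0867. The 8 macrophage markers had a summed level of 152 to 188 CPM with AngII and 180 to 246 CPM with HNG. The mean was higher with HNG for 6 of the 8, which were Csf1r at 53.1 and 59.5 CPM with AngII and HNG, Mrc1 at 30.7 and 45.0, Cd14 at 29.5 and 35.9, Cd68 at 20.6 and 33.1, Ptprc at 15.7 and 20.2 and C1qa at 5.32 and 5.67. It was lower for C1qb at 3.78 and 3.64 and Adgre1 at 3.37 and 2.62 CPM. Their part in the Plcb2 value was not tested. With MOTS-c, Plcb2 stood at 4.11 to 5.71 CPM.

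Of 6 genes for inositol uptake and phosphate transport, 5 were tested, and 0 had an adjusted p or an unadjusted p below 0.05 in edgeR in either comparison with AngII. DESeq2 and limma called 0 as well, with 0 and 1 unadjusted p below 0.05 for MOTS-c. Xpr1, the phosphate exporter whose SPX domain binds inositol pyrophosphates, stood at 125.0 ± 10.5 CPM with AngII, 116.7 ± 11.5 with HNG and 124.3 ± 6.50 with MOTS-c (SD, n = 4 each). All 19 other Nudix hydrolase genes were tested. With HNG, 0 passed the adjusted threshold of edgeR and 4 had an unadjusted p below 0.05, and with MOTS-c 0 and 1, of 19 in each. The unadjusted counts lie near the shares of all tested genes, 20.3% and 5.05%. The adjusted threshold was passed by 5.98% of all tested genes with HNG and 0.0069% with MOTS-c. The median log2 fold change of the list was 0.059 with HNG and 0.047 with MOTS-c. DESeq2 and limma called 0 in both comparisons. Nudt21, a subunit of the mRNA 3' end processing machinery and the one with most reads, stood at 81.6 ± 2.19 CPM with AngII, 84.7 ± 2.42 with HNG and 83.2 ± 4.80 with MOTS-c.

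The genes whose log2 CPM followed Nudt11 most closely over the 12 libraries, among 12537 genes that averaged 1 CPM or more, were Tubb2b (Pearson's r 0.882), Tubb2a (0.879), Lpcat4 (0.861), Mvd (0.858) and Sec11a (0.855). With the mean of each treatment subtracted, r was 0.776, 0.818, 0.733, 0.884 and 0.817 for these genes. The values are descriptions, because the 5 genes were picked as the highest of all and the 12 libraries include the treatment differences.

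The libraries held 27960586 to 38322354 counts, and their scaling factors lay between 0.989 and 1.01. Fibroblast markers were abundant in every library, with a summed 61100 to 69100 CPM for 10 genes including Col1a1, Col3a1 and Pdgfra. Cardiomyocyte markers were also present, at a summed 6570 to 8620 CPM for 8 genes with overlapping groups, in cells labelled as fibroblasts. The summed endothelial markers (6 genes) were 58.5 to 66.3 CPM with AngII, 74.5 to 82.2 with HNG and 61.2 to 66.6 with MOTS-c. With AngII and HNG the mean of Tek was 21.7 and 28.5 CPM, that of Cdh5 12.9 and 15.3 and that of Kdr 8.93 and 12.0. Pecam1 stood at 10.4 and 11.6 and Vwf at 7.92 and 8.98, while Emcn was lower with HNG, at 1.22 and 1.08. The part of these markers in the HNG values was not tested. The 8 Schwann cell and neuronal markers, with Snap25 at 0 counts, summed to 60.3 to 74.9 CPM with overlapping groups, and the 4 Y-linked transcripts to 48.8 to 54.2 CPM.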

How the data were processed

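Libraries of mRNA from the fibroblasts were sequenced from both ends on DNBSEQ. For each gene and library the authors deposited an unnormalized read count and, in a second table, an FPKM value, which divides that count by gene length and by the library's fragments. HISAT2, Picard 1.41 and SAMtools 0.1.18 are named in the submitters' processing notes. How reads were counted, whether strand was used, and on which build, is not given in the sources used here. The gene length implied by count and FPKM varied by 0.505% to 11.9% between libraries for the members, so FPKM and CPM differ slightly in their ratios.

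Groups and replicate numbers came from the sample titles, doses from the methods of the study. Counts were tested in R 4.3.3 with edgeR 4.0.16 (filterByExpr, TMM, glmQLFit, glmQLFTest) on the 8 libraries of each comparison, with Benjamini-Hochberg adjustment over all tested genes and a threshold of 0.05. The computation was tested on simulated data. Standard errors and 95% intervals were computed from each gene's F value and its degrees of freedom. CPM was computed with TMM factors of all 12 libraries, and log2 CPM with a prior count of 2. The members, the lists and the tests were chosen with earlier results of these data known. Named genes were all members, listed genes with an adjusted p below 0.05 against AngII, otherwise the listed gene with most reads, and the 5 genes most like Nudt11. Ip6k3 and Inpp4b were named outside this rule, after their values were seen. Alternatives were DESeq2 1.42.0, RLE factors, other filters, all libraries in one fit, blocks, summed replicates 2 and 3 (which share a number in their library names), limma 3.58.1 on log2(FPKM + 1) and log2(FPKM + 0.1), and the omission of each library. Fold changes on these log2 FPKM scales understate the change of low genes.

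The replicate numbers were shared by the treatments, but the labels do not say that they mark a shared preparation. The libraries held 27960586 to 38322354 counts, and Nudt11 had 25 to 67 of them in each.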

Additional observations from a re-analysis of the deposited data

How the results depend on the processing

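In all 3 comparisons 0 of 9 members passed the adjusted threshold under every one of the 18 alternatives, the replicate block included. Nudt11 was lower than with AngII under all 18 alternatives, with log2 fold changes of -0.73 to -0.21 with MOTS-c (unadjusted p 0.00247 to 0.0186) and -0.72 to -0.16 with HNG (unadjusted p 0.00595 to 0.112), the values nearest 0 coming from log2(FPKM + 1), on which low genes are compressed. With the replicate number as a block its log2 fold change was -0.529 with HNG (adjusted p 0.208) and -0.658 with MOTS-c (adjusted p 0.579), against 0.579 to 1 over all alternatives. Deviations of same-numbered libraries had mean correlations across genes of 0.0186, 0.0752 and 0.112 in the HNG, MOTS-c and direct comparisons. In these, 1, 1 and 3 of 4 pairs exceeded 0.1. The values do not settle whether the numbers pair the libraries. The main fit used no block because the methods of the study name none. With the replicate block more genes passed in each comparison, as given below.

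Directions changed for the following log2 fold changes, none of which passed the threshold, and the cause was not tested. With HNG, Ppip5k2 was -0.00445 with DESeq2, -0.00343 with RLE, -0.000955 without a filter and -0.00176 with all libraries in one fit, and Ipmk was 0.00814 with summed replicates and 0.0108 and 0.0129 with log2(FPKM + 1) and log2(FPKM + 0.1). With MOTS-c, Nudt3 was -8.77e-05 with DESeq2, -0.00125 without a filter, -0.000139 with all libraries, -7.71e-05 with the block, -0.00772 with summed replicates and -0.000555 and -0.00059 on the FPKM scales. Ip6k2 was -0.0139 and Ppip5k2 0.00353 with the block by library name, and Ppip5k2 was 0.00254 with summed replicates and 0.0111 and 0.0126 on the FPKM scales. Between the peptides, Ppip5k2 was 0.000465 without a filter, 0.000794 with at least 10 counts, 0.000382 with all libraries, 0.00221 with summed replicates and 0.00306 and 0.00352 on the FPKM scales, and Ippk was -0.0124, -0.033 and -0.0419 under the last 3.

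Leaving out 1 library gave, with HNG, -0.00577 to 0.0336 for Nudt3, -0.0202 to 0.0354 for Ppip5k2 and -0.0389 to 0.0496 for Ipmk. With MOTS-c it gave -0.026 to 0.0202 for Nudt3, -0.00517 to 0.0431 for Nudt4, -0.00549 to 0.0666 for Ip6k2, -0.0147 to 0.0551 for Ppip5k1 and -0.0135 to 0.0271 for Ppip5k2. Between the peptides it gave -0.0158 to 0.0327 for Nudt3, -0.0674 to 0.259 for Nudt11, -0.0209 to 0.0565 for Ip6k2, -0.0361 to 0.0344 for Ppip5k2 and -0.0677 to 0.0781 for Ippk.

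Of all genes, 869 passed with HNG, 1192 with DESeq2, 1111 with the replicate block, 1113 with the block by library name, 640 with limma on log2(FPKM + 1), 577 with summed replicates and 431 (without AngII replicate 1) to 932 without 1 library. With MOTS-c 1 passed, 4 with DESeq2, 2 with the replicate block, 0 with all libraries or summed replicates and 0 to 3 without 1 library. Between the peptides 637 passed, 1034 with DESeq2, 975 with all libraries, 1054 with the replicate block, 485 with the block by library name, 437 with limma on log2(FPKM + 1), 430 with summed replicates and 322 to 625 without 1 library. Counting error alone gives Nudt11 a coefficient of variation of 13.5% to 17.5% at the groups' mean counts.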
